A study of Rattus norvegicus with 9 samples.

Results

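Urate handling in the rat kidney was followed through 7 genes, chosen by symbol: the urate carriers Slc22a12, Slc2a9, Slc17a1, Slc17a3 and Abcg2, and the enzymes xanthine dehydrogenase (Xdh) and urate oxidase (Uox). All 7 were present among the 19367 genes of the expression table, and 6 of them were expressed well enough to be tested. Kidney RNA was sequenced in 9 libraries, 3 from each of 3 groups. The control group was Wistar-Kyoto rats (WKY, a strain with normal blood pressure), and the other groups were spontaneously hypertensive rats (SHR), either untreated or given dapagliflozin at 10 mg/kg per day. Rats entered at 3 months of age and treatment lasted 8 weeks. Both untreated groups received distilled water by mouth, although another label field gives saline. A label field names Wistar-Kyoto as the strain of all 9 libraries, so the groups rest on the sample titles. By their labels, treated SHR differ from untreated SHR in the drug only, whereas in the comparison of treated SHR with WKY strain and drug cannot be told apart. The labels do not tie a library to an animal, and p-values measure the spread between these libraries, which may be technical.

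Urate is the end of purine breakdown in humans, where xanthine dehydrogenase forms it from hypoxanthine and xanthine. In rats the liver enzyme urate oxidase carries it further towards allantoin. In the kidney, urate is filtered, taken back and secreted by carriers of the proximal tubule, the first stretch of the nephron. URAT1 (Slc22a12) on the luminal side and GLUT9 (Slc2a9) serve uptake from the filtrate, while NPT1 (Slc17a1), NPT4 (Slc17a3) and the ATP-driven pump ABCG2 move urate towards the lumen. Dapagliflozin blocks SGLT2, the glucose carrier of the early proximal tubule, and drugs of this class are known to lower plasma urate in patients.

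Expression was given as FPKM, fragments counted relative to transcript length and to the library's mapped total, which permits levels of different genes to be set side by side. FPKM sums were 563643 to 589838 per library. In bulk kidney, fewer cells of a type and less RNA per cell cannot be told apart. Proximal tubule markers differed between libraries of the same group. The mean log2(FPKM + 1) of 5 late proximal markers (Slc7a13, Slc5a1, Slc22a7, Slc3a1 and Slc22a19) was 6.22 to 7.29 in WKY and 5.89 to 6.36 in untreated SHR, and in treated libraries 1 to 3 it was 6.56, 4.50 and 4.92. That of 5 early proximal markers was 4.94 to 6.40, 4.38 to 6.02 and 3.37 to 5.44 in the same groups, and here treated library 1 was the lowest.

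The urate carriers spanned a wide range of abundance. Slc22a12 was the most abundant, with 429.6, 311 and 370.5 FPKM in WKY libraries 1 to 3. Untreated SHR libraries held 266, 275 and 309 FPKM. Treated SHR libraries held 338, 166 and 132.5 FPKM. Every untreated SHR library lay below every WKY library, though by as little as the step from 309 to 311, and treated library 1 fell inside the WKY range while treated libraries 2 and 3 were the lowest of all 9. Slc2a9 was the least abundant of the carriers. WKY libraries held 7.40, 5.79 and 5.92 FPKM of it, untreated SHR libraries 5.35, 6.00 and 6.81, and treated SHR libraries 4.92, 4.35 and 2.88. WKY and untreated SHR overlapped for this gene, and all 3 treated libraries lay below both.

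Slc17a3 and Slc17a1 encode related organic anion carriers and lie next to each other in the rat genome, between Slc17a4 and Slc17a2, which belong to the same family. Slc17a3 measured 261, 197 and 223 FPKM in WKY. In untreated SHR it measured 98.5, 91.4 and 110.0 FPKM, and in treated SHR 111, 56.2 and 49.0. All 6 SHR libraries lay below all 3 WKY libraries, with a wide gap between 111 and 197. For Slc17a1, WKY libraries held 119, 76.3 and 113 FPKM, untreated SHR libraries 68.9, 75.3 and 85.6, and treated SHR libraries 97.8, 47.1 and 35.6. Its groups overlapped in all 3 comparisons, and the order of libraries resembled that of Slc22a12. Reads shared between members of this family could not be checked, since the counting step is not given in the sources used here.

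The promoters of Slc17a3 and Slc2a9 are shown because these are the members that passed the test in one of the comparisons. Each run covers 250 bases before to 50 bases after the start of transcription, on the coding strand, from RefSeq (build GRCr8, a BN rat and not WKY or SHR), at chr17:41723060-41723359 (minus strand) for Slc17a3 and chr14:76560705-76561004 (plus strand) for Slc2a9. Capitals mark a match, on either strand, to CAAAGTCCA, a motif of the proximal tubule and liver factor HNF4, with at most 1 mismatch.
Slc17a3: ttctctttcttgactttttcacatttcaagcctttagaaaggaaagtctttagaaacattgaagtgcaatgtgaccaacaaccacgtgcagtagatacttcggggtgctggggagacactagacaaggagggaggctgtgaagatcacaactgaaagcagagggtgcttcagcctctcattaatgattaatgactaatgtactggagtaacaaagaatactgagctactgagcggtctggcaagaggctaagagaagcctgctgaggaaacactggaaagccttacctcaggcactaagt
Slc2a9: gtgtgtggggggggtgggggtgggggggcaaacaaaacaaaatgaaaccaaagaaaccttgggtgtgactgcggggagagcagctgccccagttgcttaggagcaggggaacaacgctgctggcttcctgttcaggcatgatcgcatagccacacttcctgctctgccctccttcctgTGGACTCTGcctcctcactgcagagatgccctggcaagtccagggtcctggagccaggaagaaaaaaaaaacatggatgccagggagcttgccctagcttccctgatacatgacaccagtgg
The match in Slc2a9 lies 72 to 64 bases before the start on the opposite strand, and Slc17a3 has none in this window. Of the 7 members, Slc2a9 and Xdh had a match, as did 8.67% of 33469 RefSeq rat promoters of the same length. A match is a description of letters and does not show binding.

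Abcg2, the ATP-driven exporter, stood at 70.2, 38.3 and 60.8 FPKM in WKY. It stood at 35.6, 41.7 and 40.4 in untreated SHR and at 52.0, 19.9 and 18.2 in treated SHR. WKY library 2 lay within the untreated SHR range, and treated library 1 above it. Xdh, which oxidizes hypoxanthine and xanthine, was present at low levels, with 7.55, 8.85 and 7.77 FPKM in the WKY libraries. Untreated SHR libraries held 12.8, 9.81 and 8.97 FPKM, and treated ones 7.11, 14.2 and 6.68. It was the one tested member whose mean was higher in untreated SHR than in WKY, and its lowest untreated SHR value (8.97) barely cleared the highest WKY value (8.85). Uox was listed at 0 in 8 libraries and at 0.07 FPKM in treated library 3, and it did not pass the filter for testing. Hepatocyte markers were also close to 0, with sums of 0.62 to 1.34 FPKM in WKY, 0.90 to 1.69 in untreated SHR and 0.62 to 1.35 in treated SHR over 6 genes (Alb, Serpina1, Fgb, Apoa2, Ttr and Cps1), none of which was at 0 in all libraries.

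**Figure D1:**
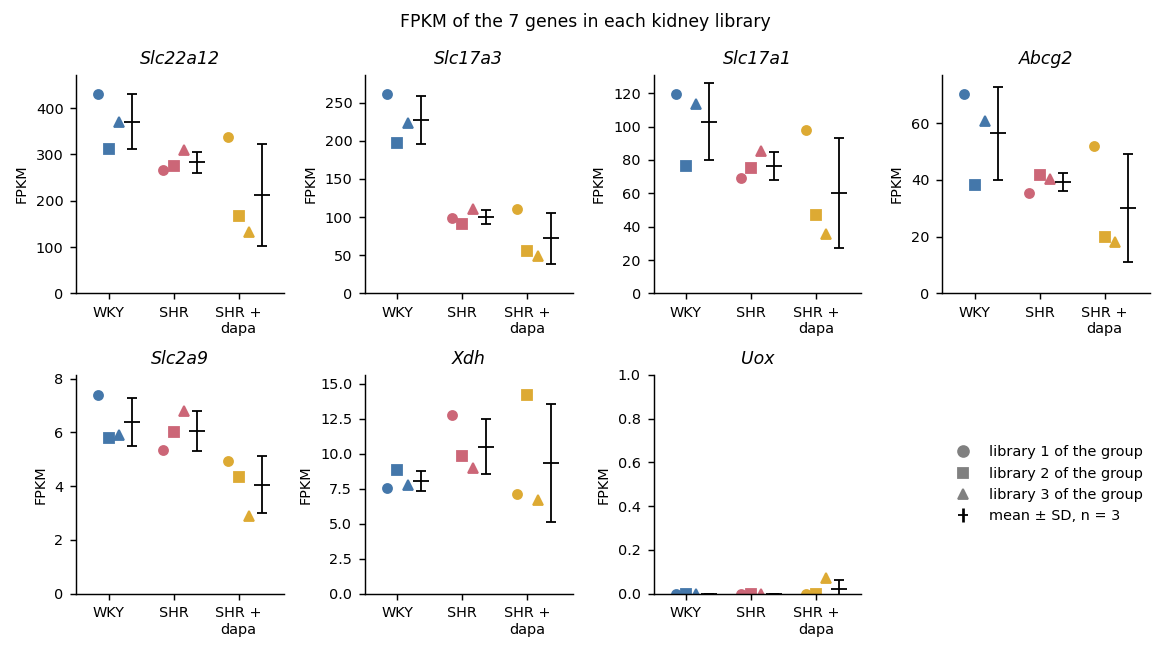
Each panel plots FPKM (linear axis from 0) of 1 gene in the 9 kidney libraries, with 1 symbol per library number and bars for the group mean ± SD (n = 3). Slc17a3 separates WKY (197 to 261 FPKM) from all 6 SHR libraries (49.0 to 111), whereas the treated libraries of Slc22a12, Slc17a1 and Abcg2 divide into library 1 and libraries 2 and 3.

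Untreated SHR were compared with WKY to ask how the hypertensive strain differs from its control. Slc17a3 showed the widest difference of the 6 tested genes, at 99.95 ± 9.38 FPKM in untreated SHR against 227 ± 31.8 in WKY (mean ± SD, n = 3 each), or 44.0% of the WKY mean. The luminal uptake carrier Slc22a12 measured 283 ± 22.5 against 370.3 ± 59.4 FPKM, or 76.5% of the WKY mean. Slc17a1 stood at 74.4% and Abcg2 at 69.5% of their WKY means, Slc2a9 at 95%, and Xdh at 130.5%. Mean log2 levels were thus lower for 5 of the 6, as they were for 35.9% of all genes. None of the 6 passed limma with Benjamini-Hochberg adjustment over 13127 genes at an adjusted p of 0.05, in a fit of log2(FPKM + 1), where 2.96% of all genes passed, 1.12% as lower and 1.84% as higher. Slc17a3 came nearest, with a log2 change of -1.17 (SE 0.27, 95% interval -1.78 to -0.57, adjusted p = 0.0563), and it was the only 1 of the 6 with an unadjusted p under 0.05 (0.00183), against 19.5% of all genes, or 5.36% with a lower level. Groups did not overlap for 3 members, against 28.4% of all genes. Of these, Slc22a12 and Slc17a3 were lower (8.11% of all genes) and Xdh higher (20.3%).

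Whether Slc17a3 passed depended in part on the estimate of spread. Its adjusted p was 0.00347 when only the 6 libraries compared were fitted, 0.00166 without treated library 1 and 0.038 without treated library 3, but 0.0738 without treated library 2, at the same log2 change of -1.17, because the treated libraries enter only through the shared spread. Leaving out 1 of the WKY or untreated SHR libraries gave log2 changes of -1.27 to -1.07 and adjusted p-values of 0.069 to 0.188. With all 9 libraries Slc17a3 did not pass with a replicate block, another pseudocount or no filter. It also did not pass with median-of-ratios scaling or quantile normalization (adjusted p of 0.0578 to 0.0795 by limma over these fits). The intervals of the other 5 genes all included 0. That of Slc22a12 ran from -1.05 to 0.30, that of Abcg2 from -1.31 to 0.37 and that of Slc17a1 from -1.15 to 0.35, so differences of more than 2-fold lower were not excluded for any of these carriers. The interval of Slc2a9 was narrower, from -0.44 to 0.32, and that of Xdh ran from -0.22 to 0.89.

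Treated and untreated SHR were compared to ask what dapagliflozin changed in the hypertensive kidney. All 6 tested genes had lower means in treated SHR, where 42.6% of all genes did, and none passed the test. Slc2a9, the uptake carrier GLUT9, measured 4.05 ± 1.05 against 6.05 ± 0.731 FPKM (66.9% of the untreated mean) and was the only member whose groups did not overlap, against 19.0% of all genes (6.44% lower). It was also the only 1 with an unadjusted p under 0.05, against 15.2% of all genes (5.39% lower). Its log2 change was -0.50 (SE 0.17, 95% interval -0.88 to -0.12, unadjusted p = 0.0162, adjusted p = 0.285 by limma). Slc17a3 stood at 72.1%, Slc22a12 at 74.9%, Abcg2 at 76.6%, Slc17a1 at 78.6% and Xdh at 88.8% of the untreated means, with adjusted p-values of 0.352 to 0.689. By the same test, 0 of 13127 genes passed (0%), against 1997 at an unadjusted p under 0.05.

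These means cover libraries that disagreed. Treated library 1 lay above all 3 untreated SHR libraries for Slc22a12, Slc17a1, Slc17a3 and Abcg2, while treated libraries 2 and 3 lay below all 3. Without treated library 1, 4 members passed as lower in treated SHR, along with 830 genes in all. They were Slc22a12 (log2 change -0.92, adjusted p = 0.029), Abcg2 (-1.003, adjusted p = 0.0416), Slc17a1 (-0.88, adjusted p = 0.0462) and Slc17a3 (-0.91, adjusted p = 0.0242), each over 1.5 times its log2 change with all libraries. Slc2a9 did not pass in that fit (-0.63, adjusted p = 0.0628). Without treated library 2 or 3 no member passed. Without treated library 3 the log2 changes shrank to -0.25 for Slc22a12, -0.27 for Abcg2, -0.17 for Slc17a1, -0.33 for Slc17a3, -0.32 for Slc2a9 and -0.04 for Xdh, each by over 1.5 times. Without treated library 2, Abcg2 stood at -0.33 and Xdh at -0.53, and without untreated SHR library 1 or treated library 1 Xdh stood at -0.08.

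Treated SHR were also set against WKY, a comparison that holds strain and drug together and shares its libraries with the other two. Slc17a3 fell to 72.0 ± 33.9 from 227 ± 31.8 FPKM, or 31.7% of the WKY mean, and Slc2a9 fell to 4.05 ± 1.05 from 6.37 ± 0.894 FPKM, or 63.6%. Slc22a12 stood at 57.3%, Slc17a1 at 58.4%, Abcg2 at 53.3% and Xdh at 115.9% of their WKY means, and these 4 did not pass. The 2 members called make 2 of 6, beside 22.9% of all genes called in either direction and 6.09% called lower. Groups did not overlap for the same 2 genes, beside 38.6% of all genes (10.4% lower). Lower mean levels were seen in 5 of 6, beside 35.4% of all genes, and an unadjusted p under 0.05 for these 5, beside 40.2% (11.8% lower). The log2 change of Slc17a3 was -1.73 (SE 0.27, adjusted p = 0.00652) and that of Slc2a9 -0.56 (SE 0.17, adjusted p = 0.0438) in limma. Slc17a3 kept its call whichever library was left out (adjusted p of 0.000139 to 0.0326). Slc2a9 kept it only without treated library 1. Leaving out WKY 1, 2 or 3, untreated SHR 1, 2 or 3, or treated 2 or 3 gave adjusted p-values of 0.0523 to 0.139, with a log2 change of -0.38 without treated library 3. Without treated library 1, 5 members passed, all but Xdh, in a fit that called 4791 of all 13127 genes. Without WKY 2 Abcg2 passed (adjusted p = 0.0492 by limma), in a fit that called 3288 genes.

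**Figure D2:**
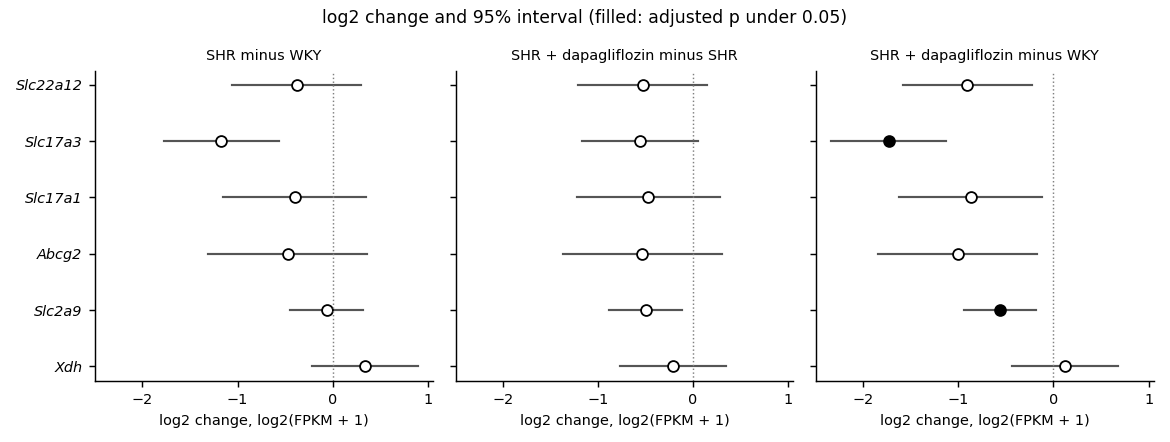
The log2 change of the 6 tested genes (points) with its 95% interval (lines) is plotted for the 3 comparisons on a log2(FPKM + 1) axis. Filled points passed limma at an adjusted p under 0.05, which holds for Slc17a3 (-1.73) and Slc2a9 (-0.56) against WKY in treated SHR and for no gene in the other panels.

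The level of Slc17a3 relative to other carriers of the same library divided the strains more evenly than its level alone. The ratio of Slc17a3 to Slc22a12 was 0.607, 0.635 and 0.603 in WKY. Untreated SHR libraries gave 0.371, 0.332 and 0.356, and treated ones 0.329, 0.338 and 0.370. The 6 SHR libraries therefore spanned 0.329 to 0.371, treated library 1 included, and none came near the WKY values. The ratio of Slc17a3 to Slc17a1 was 2.25 ± 0.313 in WKY, 1.31 ± 0.110 in untreated SHR and 1.23 ± 0.126 in treated SHR, and that of Slc17a3 to Abcg2 was 4.18 ± 0.841, 2.56 ± 0.319 and 2.55 ± 0.366 (mean ± SD, n = 3). In contrast, Slc22a12 to Slc17a1 was 3.65 ± 0.404 in WKY, 3.71 ± 0.134 in untreated SHR and 3.57 ± 0.137 in treated SHR, with overlapping groups. Of the 6 ratios computed among these 4 carriers, the 3 with Slc17a3 separated the strains and the 3 without it overlapped. The ratios were chosen after the values were seen and carry no test. Leaving out any 1 library kept the log2 difference of the Slc17a3 to Slc22a12 ratio between untreated SHR and WKY at -0.84 to -0.76.

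**Figure D3:**
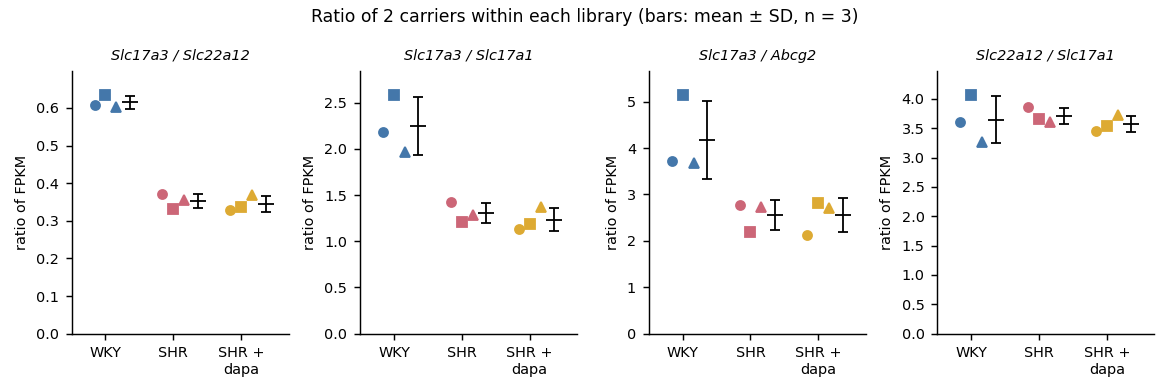
The ratio of FPKM of 2 carriers within each library is plotted by group on axes from 0, with bars for mean ± SD (n = 3). Slc17a3 relative to Slc22a12 sits at 0.603 to 0.635 in WKY and at 0.329 to 0.371 in all 6 SHR libraries, while Slc22a12 relative to Slc17a1 overlaps between groups.

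Levels of Slc22a12, Slc17a1 and Abcg2 moved with markers of the late proximal tubule. WKY library 1, WKY library 3 and treated library 1 were the 3 highest libraries, in that order, both in the late proximal mean and in each of these 3 carriers, and treated libraries 2 and 3 were the lowest in all of them. The late proximal markers summed to 1885 to 4376 FPKM in WKY, 1611 to 2169 in untreated SHR and 593 to 2632 in treated SHR, and the early proximal markers to 1297 to 1860, 1616 to 1878 and 866 to 1427. All 5 late proximal markers had lower mean log2 levels in untreated SHR than in WKY, and all 5 had lower ones in treated than in untreated SHR. None of these differences passed, whereas against WKY in treated SHR 2 of 5 late, 1 of 5 early and 2 of 7 whole proximal tubule markers fell, beside 6.09% of all genes. No marker of either list was at 0 in all libraries. Collecting duct markers went the other way, with sums of 581 to 1126 FPKM in WKY, 1209 to 1466 in untreated SHR and 1792 to 3366 in treated SHR, and all 5 rose in treated SHR against WKY, beside 16.8% of all genes. Of the other marker lists, 1 of 5 podocyte and 1 of 4 thick ascending limb genes rose in that comparison, and no endothelial, leukocyte or erythroid gene passed. The other 3 of the 4 thick ascending limb genes had lower means there without passing (median log2 change of the list -0.41). Whether a different share of cortex and medulla in the tissue pieces had a part in the carrier levels was not tested.

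With the early and late proximal means added as covariates, the carriers divided. Between untreated SHR and WKY the log2 change of Slc22a12 was -0.06 (SE 0.24), that of Slc17a1 -0.06 (SE 0.26) and that of Abcg2 -0.02 (SE 0.18), against -0.38, -0.40 and -0.47 without the covariates. That of Slc17a3 was -0.92 (SE 0.22, unadjusted p = 0.00341, adjusted p = 0.115 by limma), against -1.17. Between treated and untreated SHR, the values were -0.23 for Slc22a12, -0.14 for Slc17a1, -0.10 for Abcg2 and -0.34 for Slc17a3, whereas Slc2a9 stayed at -0.51 (SE 0.27). Against WKY, treated SHR had a log2 change of -1.26 (SE 0.39, unadjusted p = 0.0138, adjusted p = 0.549) for Slc17a3 and of -0.54 (SE 0.40, adjusted p = 0.849) for Slc2a9, and neither passed. The change of Slc2a9 was thus about as large as without the covariates (-0.56), with a wider error. The covariates did not include the 7 whole proximal tubule markers. Their mean log2(FPKM + 1) was 7.52 to 7.95 in WKY and 7.35 to 7.44 in untreated SHR. In treated libraries 1 to 3 it was 7.17, 7.02 and 6.27, below both other groups and falling from library 1 to 3 as Slc2a9 did. Whether these markers account for the level of Slc2a9 was not tested. The covariates come from the same libraries and remove part of any group difference, and 4 residual degrees of freedom remain.

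**Figure D4:**
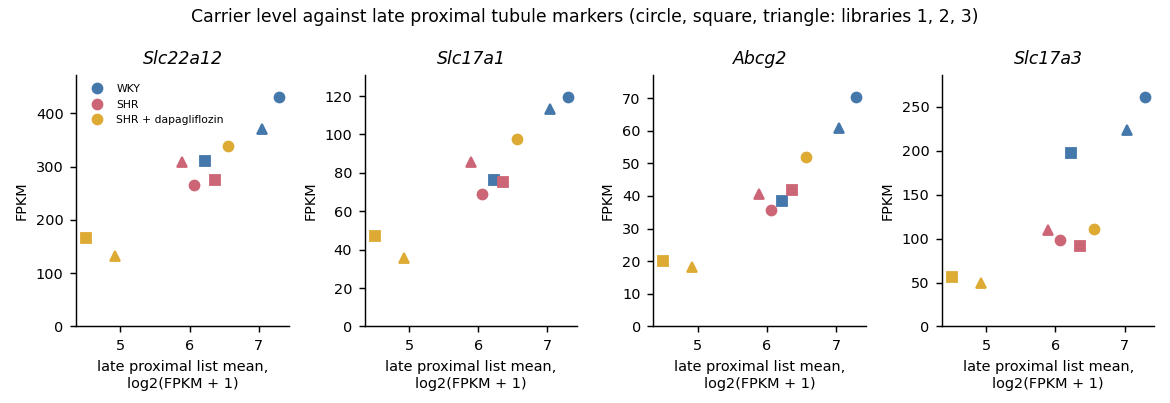
FPKM of 4 carriers (vertical, linear from 0) is plotted against the mean log2(FPKM + 1) of 5 late proximal markers (horizontal) in the 9 libraries, coloured by group. Slc22a12, Slc17a1 and Abcg2 follow the marker mean across groups, while Slc17a3 has the 3 WKY libraries above the SHR libraries at like marker means, such as WKY 2 (6.22, 197 FPKM) and untreated SHR 2 (6.36, 91.4 FPKM).

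The patterns of the carriers were shared with other genes. Over the 9 libraries, the genes most like Slc22a12 by Pearson's r of log2(FPKM + 1) were Xpot (0.992), Man1a1 (0.991) and Entpd5 (0.990). Those most like Slc17a1 were Xpot (0.990), Entpd5 (0.990) and Nme7 (0.988), and those most like Abcg2 were Elfn1 (0.994), Nt5e (0.994) and Grina (0.993). Nt5e is the ectonucleotidase that forms adenosine, a purine breakdown step. Slc17a3 was most like Ghr (0.982), Aoah (0.982) and Tmem268 (0.981), and Slc2a9 most like Nr1h3 (0.986), Synj2bp and Lrp2 (0.970), the last of which encodes the proximal endocytic receptor megalin. Xdh was most like Amt (0.960), Rassf2 (0.943) and Ppara (0.942). Among members, Slc22a12 and Slc17a1 correlated at 0.987 and Slc22a12 and Slc17a3 at 0.908, or 0.983 and 0.990 after group means were removed, while Xdh correlated with the 5 carriers at -0.369 (Abcg2) to 0.055 (Slc2a9). These values describe 9 libraries that share groups and differ in levels of tubule markers, and the 3 genes per member are the top of 13127.

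A further list of carriers and scaffold proteins comprised 14 genes, with Pdzk1 and Slc9a3r1 as the scaffolds. Of these genes, Slc5a12 and Slc22a7 are also on a proximal marker list. In treated SHR against WKY, 4 fell, 0 rose and 10 did not pass, beside 6.09% of all genes that fell. The median log2 change was -0.76, where that of all genes tested was 0.11. Slc22a13 (OAT10, a luminal urate exchanger) fell to 0.17 ± 0.175 from 4.61 ± 2.69 FPKM (adjusted p = 0.0164; the log2 change was -2.12 with an SE of 0.45). Slc17a2 and Slc17a4, which flank Slc17a3 and Slc17a1, fell to 8.48 ± 3.16 from 15.5 ± 0.930 FPKM and to 1.35 ± 0.206 from 2.95 ± 0.545 (adjusted p = 0.0224 and 0.0099). Abcc2, an ATP-driven organic anion pump, fell to 1.58 ± 0.516 from 3.43 ± 1.08 FPKM (adjusted p = 0.0332). None of the 14 passed between untreated SHR and WKY (8 lower and 6 higher means, median -0.34), or between treated and untreated SHR (14 lower means, median -0.54). The smallest value in the limma test of the first of these was that of Abcc2 (1.88 ± 0.281 FPKM in untreated SHR, adjusted p = 0.176), followed by Slc17a4 (2.04 ± 0.105 FPKM, adjusted p = 0.177). In the second it was that of Slc22a13 (2.35 ± 1.42 FPKM in untreated SHR, adjusted p = 0.283), followed by Slc17a4 (adjusted p = 0.286). The 4 calls against WKY became 1 without WKY 1, WKY 3 or treated 3, 2 when only the 6 libraries compared were fitted, 7 without treated 1, and 0 with the proximal covariates. Without treated 1, 2 of the 14 were also called lower against untreated SHR. That fit called 4791 of all genes against WKY and 830 against untreated SHR.

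Purine synthesis enzymes were called higher and not lower in the same comparison, although 3 were called higher and 1 lower with median-of-ratios scaling, and 6 higher and 1 lower without WKY 2. Of 13, 5 rose, 0 fell and 8 did not pass in treated SHR against WKY, with a median log2 change of 0.28, beside 16.8% of all genes that rose there. Gart, a trifunctional enzyme of the de novo pathway, rose to 13.9 ± 2.15 from 8.27 ± 0.889 FPKM (adjusted p = 0.00962; log2 change 0.67 with an SE of 0.12), and Paics, which acts later in that pathway, rose to 82.8 ± 7.05 from 62.5 ± 4.03 (adjusted p = 0.0168). Adsl (26.5 ± 1.24 against 21.7 ± 1.34) and Pfas (9.22 ± 1.22 against 6.45 ± 1.03 FPKM) also rose (adjusted p = 0.0271 and 0.0322). No member passed in untreated SHR against WKY, where Adsl (26.4 ± 0.645 FPKM) and Atic (15.9 ± 0.381 against 21.1 ± 1.96) had the smallest p (adjusted p = 0.0863 and 0.0889), or in treated against untreated SHR, where Paics and Ppat had it (65.4 ± 3.2 and 16.5 ± 1.77 FPKM in untreated SHR, 82.8 ± 7.05 and 23.0 ± 4.07 in treated SHR, adjusted p = 0.281 each). The 5 calls became 7 without WKY 2, 6 without treated 1, 1 without WKY 3, treated 2 or treated 3, 2 without WKY 1, 3 without untreated SHR 1 or 2 or with no filter on low values, 1 when only the 6 libraries compared were fitted, and 0 with the proximal covariates.

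Of 12 tested genes of purine breakdown and salvage, Ampd3 and Nt5c1a rose and Ampd2 fell in treated SHR against WKY, and 9 did not pass. These 3 of 12 are near the 22.9% of all genes called in that comparison. The AMP deaminase genes therefore differed in direction, with Ampd3 at 32.4 ± 8.37 against 14.9 ± 3.52 FPKM (adjusted p = 0.0116) and Ampd2 at 14.4 ± 3.23 against 22.9 ± 2.63 (adjusted p = 0.0187), while the nucleotidase gene Nt5c1a stood at 3.50 ± 0.866 against 1.47 ± 0.310 (adjusted p = 0.0151). Ampd3 and Ampd2 had the smallest p in untreated SHR against WKY (22.4 ± 1.13 and 17.5 ± 0.941 FPKM, adjusted p = 0.165 and 0.221). In treated against untreated SHR the smallest p belonged to Nt5c1a (2.29 ± 0.387 FPKM in untreated SHR, adjusted p = 0.302) and Ampd3 (adjusted p = 0.314). The 3 calls became 0 without WKY 3 or with the proximal covariates, 1 without WKY 1, treated 2 or treated 3, and 6 without WKY 2 or treated 1.

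Of the steps after urate oxidase, Urad, which decarboxylates an intermediate on the way to allantoin, rose to 29.6 ± 8.25 FPKM in treated SHR from 13.3 ± 3.45 in WKY (adjusted p = 0.0132; log2 change 1.09 with an SE of 0.21), although Uox itself was listed at 0 in 8 libraries. Its levels were 10.7, 17.2 and 11.9 FPKM in the WKY libraries, 16.5, 17.5 and 18.2 in untreated and 21.4, 29.3 and 37.9 in treated SHR libraries, so that every treated library exceeded all others. Of all genes, 16.8% were called higher in treated SHR against WKY. Non-overlap held for 38.6% of all genes there and for 19.0% in treated against untreated SHR. All 5 collecting duct markers were likewise higher without overlap in both comparisons. Urad did not pass between treated and untreated SHR (adjusted p = 0.281) or between untreated SHR and WKY (adjusted p = 0.336), and its call was lost without WKY 1 or WKY 3 and with the proximal covariates. Urah, which hydrolyses the product of urate oxidase, measured 2.94 ± 0.888 FPKM in untreated SHR against 1.05 ± 0.501 in WKY (adjusted p = 0.181) and 1.37 ± 1.05 in treated SHR (adjusted p = 0.319 against untreated SHR).

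Xanthine dehydrogenase needs a molybdenum cofactor. Of 6 tested genes of that cofactor and its enzymes, Mocs1 was called higher in untreated SHR against WKY and 5 did not pass. Of all genes, 1.84% were called higher there. Mocs1, which starts cofactor synthesis, rose to 33.6 ± 2.43 from 19.8 ± 2.33 FPKM (adjusted p = 0.00738 by limma, log2 change 0.74 with an SE of 0.11). Its levels were 17.9, 22.4 and 19.0 FPKM in the WKY libraries, 33.2, 31.4 and 36.2 in untreated and 28.5, 33.9 and 33.8 in treated SHR libraries, so that all 6 SHR libraries lay above WKY. Between untreated SHR and WKY, 3 of the 6 tested genes were higher without overlap, beside 20.3% of all genes. Between treated SHR and WKY it was 2 of the 6, beside 38.6% of all genes without overlap in either direction. In treated SHR against WKY, Mocs1 was again the only 1 called (adjusted p = 0.0071 by limma), beside 16.8% of all genes called higher. Between treated and untreated SHR none was called, with the smallest p for Suox (56.4 ± 3.22 against 63.4 ± 0.596 FPKM, adjusted p = 0.361) and Mocs3 (6.18 ± 0.860 against 5.66 ± 0.536, adjusted p = 0.661). The count of 1 between untreated SHR and WKY held in every alternative fit, the proximal covariates included. Against WKY in treated SHR it became 2 without treated library 1 and 0 with the covariates.

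The transcription factor genes Hnf4a and Hnf4g, active in the proximal tubule, did not pass in any of the 3 comparisons with all 9 libraries. Hnf4a measured 182 ± 29.8 FPKM in WKY, 194 ± 15.7 in untreated SHR and 131 ± 54.9 in treated SHR (adjusted p = 0.857 for untreated SHR against WKY, 0.315 for treated against untreated SHR and 0.162 for treated SHR against WKY). Hnf4g measured 10.8 ± 4.97, 6.73 ± 2.65 and 5.23 ± 2.40 FPKM in the same groups (adjusted p = 0.415, 0.695 and 0.107). Treated libraries 1 to 3 held 187, 128 and 77.2 FPKM of Hnf4a, so that library 1 was the highest of the treated ones here too. Without it, both genes were called lower against WKY (adjusted p = 0.0162 for Hnf4a and 0.0387 for Hnf4g), and Hnf4a also against untreated SHR (adjusted p = 0.0414). That fit called 4791 of all genes against WKY and 830 against untreated SHR.

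**Figure D5:**
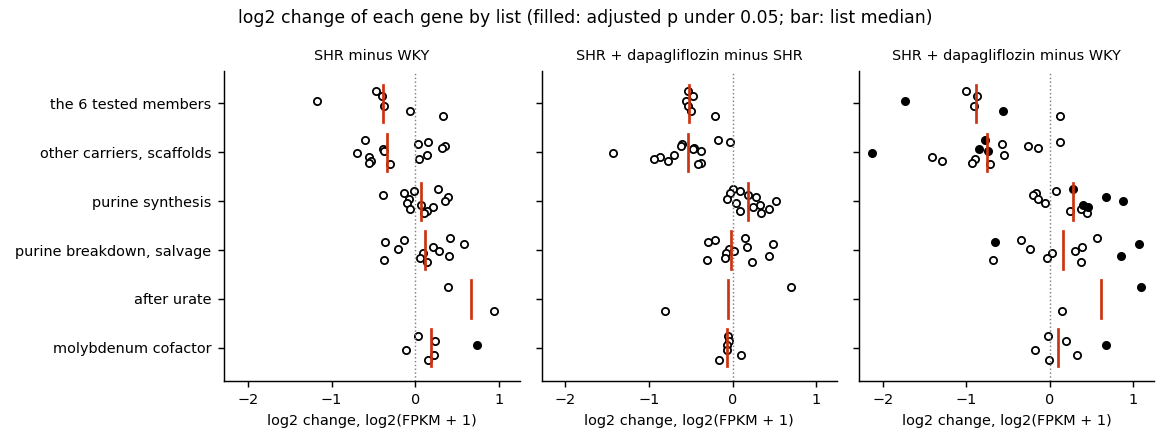
Each point is the log2 change of 1 gene on a log2(FPKM + 1) axis, by gene list (rows) and comparison (panels), filled where it passed limma at an adjusted p under 0.05, and red bars mark list medians. In treated SHR against WKY the carrier lists lie mostly left of 0 (medians -0.89 and -0.76) and purine synthesis right of it (0.28), while a single point, Mocs1, is filled in untreated SHR against WKY.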

How the data were processed

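Per the labels' protocols, total kidney RNA was extracted with Trizol and read from 1 end (50 bases, BGISEQ-500 instrument). HISAT2 2.0.4, Bowtie2 2.2.5 and build Rnor_6.0 are named, without their roles, per the submitters' processing notes; how expression was counted, with which annotation and filters, is not given in the sources used here. The table's values are FPKM made by the authors per the file headers, with a column for each library. Read depth could not be recovered: of 103 low values in 17 genes, 67.0% lay within 0.1 of a whole number of reads. Scaling within a library means that abundant transcripts can lower or raise all others.

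The 13127 genes that reached 1 FPKM in 3 or more libraries were analysed as log2(FPKM + 1), so fold changes of weak genes are understated. Limma 3.58.1 in R 4.3.3 fitted all 9 libraries by group (6 residual degrees of freedom, variance trend), two-sided, with Benjamini-Hochberg adjustment over all genes and calls at an adjusted p of 0.05. The fit was tested on simulated data with independent noise for each gene, which does not cover shifts shared by many genes. Alternatives were another pseudocount (0.1), no filter, median-of-ratios scaling, quantile normalization, only the 2 groups compared, a replicate block, proximal marker covariates and each library left out; leaving a library out of the ratios was added after seeing the data. Ratios and motif counts used Python 3.11.15 with pandas 2.3.3 and numpy 2.4.6, and plots matplotlib 3.10.9.

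Members and gene lists were chosen with earlier results of these data known. Named genes are the members, for each pathway list up to 4 called genes by smallest p per comparison (or the 2 with the smallest p where none was called), and the 3 genes most like each member. Marker lists are given as sums and counts, and part of a list of regulators is not reported here. List symbols were looked up in the table, 4 through gene IDs of the RefSeq table (GRCr8, names and neighbours only), and Allc was not analysed here. Slc22a19 is matched to the ID now named Slc22a24. Slc5a12 and Slc22a7 are on a marker list and on the carrier list.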

Additional observations from a re-analysis of the deposited data

How the results depend on the processing

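Of the member log2 changes, 258 under the alternative fits kept their direction and side of the threshold, 13 lost their call, 11 gained one and 6 changed sign. The sign changes were those of Xdh in treated SHR against WKY with median-of-ratios scaling (-0.002), quantile normalization (-0.023) and without treated library 2 (-0.196), Xdh in treated against untreated SHR with the proximal covariates (0.089), and Slc2a9 in untreated SHR against WKY without WKY 1 (0.036) and without untreated SHR 1 (0.011). With 1 library left out, these values ran from -0.196 to 0.298 for Xdh in treated SHR against WKY and from -0.138 to 0.036 for Slc2a9 in untreated SHR against WKY. Xdh and Slc2a9 were not called in any of these. Fitting only the 6 libraries compared gave 1 member called in untreated SHR against WKY and 1 in treated SHR against WKY, where 1026 genes were called in place of 3010. In treated SHR against WKY, 1 member was called with no filter on low values and 0 with the proximal covariates, which left 22 genes called there and 180 in untreated SHR against WKY in place of 388. The cause was not tested.

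With 1 library left out, the members called ranged from 0 to 1, 0 to 4 and 1 to 5 in the 3 comparisons (untreated SHR against WKY, treated against untreated SHR, treated SHR against WKY), and all genes called from 167 to 626, 0 to 830 and 593 to 4791. The lowest came without WKY 3 in the first and last, and the highest without treated library 1. Deviations of same-numbered libraries from their group means correlated at r of -0.328 to 0.456 over 9 pairs, 3 above 0.1. Those of differently numbered libraries of different groups ran from -0.532 to 0.327. The labels do not say whether the numbers pair libraries, and these values cannot decide it with 3 libraries per group. With the replicate block, 1 gene was called in treated against untreated SHR, and 1 member in treated SHR against WKY, since the adjusted p of Slc2a9 was 0.0629. Median-of-ratios scaling moved the median log2 change of all genes in treated SHR against WKY from 0.11 to -0.01, and the share of calls that were higher from 73.5% to 53.6% (59.9% with quantile normalization). In untreated SHR against WKY that share went from 62.1% to 52.5% and 49.6%. The members called were the same in number under both scalings.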
